A study of Mus musculus with 11 samples.

Results

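The glucocorticoid response genes described here are 9 genes, Fkbp5, Tsc22d3, Zbtb16, Sgk1, Dusp1, Nr3c1, Hsd11b1, Klf9 and Ddit4, read by gene name from the count tables of pancreas and of epididymal adipose tissue, which list 54532 and 46078 genes. All 9 were in both tables and all 9 passed the filter on low counts in both tissues. They were selected on these count tables with their changes between the groups already known, so their levels and fold changes are given as a description, without p-values. RNA was sequenced from wild type male C57BL/6 mice (C57BL/6J in the study's methods) aged 16 weeks. The pancreas gave 2 control and 3 OA-AP libraries, and epididymal adipose tissue gave 3 control and 3 OA-AP libraries. The OA-AP samples carry the label Model. Control mice ate a chow diet with 10 kcal% fat for 12 weeks and were injected with saline. OA-AP, for obesity-related alcohol-induced acute pancreatitis, was induced in mice fed a diet with 60 kcal% fat for 12 weeks by 2 intraperitoneal injections of ethanol at 2 g/kg, 1 h apart, and tissue was taken 12 h from the start. The groups therefore differ in diet, ethanol and pancreatitis at once, and these cannot be told apart. The sample labels do not say that the libraries of a group are separate animals, so the spread between them may be technical in part, nor whether the 2 tissues were taken from the same mice.

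Glucocorticoids, corticosterone in the mouse, are steroid hormones of the adrenal cortex that rise in stress, fasting and acute inflammation. They enter cells, bind the glucocorticoid receptor, which chaperones hold ready in the cytoplasm, and the receptor then moves to the nucleus, where it switches on target genes at glucocorticoid response elements and restrains many inflammatory genes. Inside tissues an enzyme of the endoplasmic reticulum, 11β-hydroxysteroid dehydrogenase type 1, regenerates active hormone from its inert form, and in adipose tissue this local step is a known determinant of glucocorticoid action. The 9 genes cover these steps. Hsd11b1 encodes the regenerating enzyme and Nr3c1 the receptor. Fkbp5 encodes a co-chaperone that lowers the affinity of the receptor for hormone, a feedback on the pathway. Tsc22d3 encodes the glucocorticoid-induced leucine zipper, an anti-inflammatory protein, and Zbtb16 and Klf9 encode zinc finger transcription factors. Sgk1 is a kinase that regulates ion transport and cell survival, Dusp1 is a phosphatase that switches off MAP kinases, and Ddit4 encodes an inhibitor of mTORC1 that also answers to hypoxia and energy stress.

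On the GRCm38 mouse genome, by the deposited pancreas table, Fkbp5 (ENSMUSG00000024222) lies on chromosome 17 from 28399094 to 28517527 on the minus strand. Dusp1 lies on the same chromosome from 26505590 to 26508519. Ddit4 and Sgk1 share chromosome 10, from 59949669 to 59951834 and from 21882184 to 21999903. Tsc22d3 lies on chromosome X from 140539528 to 140600659, Zbtb16 on chromosome 9 from 48654297 to 48836222, Hsd11b1 on chromosome 1 from 193221634 to 193264075 and Klf9 on chromosome 19 from 23141226 to 23166911. Hsd11b1 lies inside Lamb3, a laminin gene on the opposite strand, but none of the 9 genes shares an exonic base with another gene in GENCODE M21.

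In their ideal form glucocorticoid response elements pair the 6-base words AGAACA and TGTTCT with 3 bases between them. Each word is the reverse complement of the other. RefSeq promoter windows on GRCm38.p6, with 250 bases before and 50 after each start site, were at hand for 7 of the 9 genes, in 14 windows. Either word was found in 4 of the 14 windows, in Sgk1 and Tsc22d3, against 19.0% of 32851 windows of all genes. Both genes have several windows, and by gene it was 2 of 7 against 21.3% of 27025 genes. The whole element was found in 1 window of Sgk1 and in 3 of the 32851 windows of all genes. The upstream 250 bases are printed for that Sgk1 window and for the Tsc22d3 window with a word, to show where they stand, and for Fkbp5 and Ddit4, whose fold changes in the pancreas were the largest of the 9 and whose windows held neither word. Capitals mark the words.
Sgk1, chr10:21993640-21993889, plus strand: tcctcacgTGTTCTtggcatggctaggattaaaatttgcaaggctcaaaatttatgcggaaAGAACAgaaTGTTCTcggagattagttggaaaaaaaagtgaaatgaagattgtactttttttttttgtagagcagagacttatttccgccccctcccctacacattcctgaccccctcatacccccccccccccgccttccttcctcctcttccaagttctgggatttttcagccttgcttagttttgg
Tsc22d3, chrX:140600523-140600772, minus strand: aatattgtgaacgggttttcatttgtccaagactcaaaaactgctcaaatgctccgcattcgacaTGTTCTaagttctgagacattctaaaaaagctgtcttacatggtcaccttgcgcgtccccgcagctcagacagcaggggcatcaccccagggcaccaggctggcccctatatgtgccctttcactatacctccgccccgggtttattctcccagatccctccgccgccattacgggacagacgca
Fkbp5, chr17:28486150-28486399, minus strand: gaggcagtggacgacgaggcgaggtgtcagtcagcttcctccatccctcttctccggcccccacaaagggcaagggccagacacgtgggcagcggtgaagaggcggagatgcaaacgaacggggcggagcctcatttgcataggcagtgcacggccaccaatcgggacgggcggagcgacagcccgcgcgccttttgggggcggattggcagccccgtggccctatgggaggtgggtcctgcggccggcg
Ddit4, chr10:59951771-59952020, minus strand: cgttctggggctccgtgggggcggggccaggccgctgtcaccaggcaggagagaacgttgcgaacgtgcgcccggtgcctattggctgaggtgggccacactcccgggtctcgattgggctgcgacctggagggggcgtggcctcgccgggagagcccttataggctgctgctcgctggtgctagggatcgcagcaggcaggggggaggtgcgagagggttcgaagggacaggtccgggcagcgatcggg
In the Sgk1 window the whole element ran from 189 to 175 bases upstream of the start site, and a further TGTTCT stood 242 to 237 bases upstream. In the Tsc22d3 window TGTTCT stood 185 to 180 bases upstream. Only exact letters were sought. A match of letters is a description and not a binding site. Windows without a match say nothing of elements with other letters in them or of elements elsewhere.

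Pancreas libraries held 14188832 to 17238919 counts on genes and adipose libraries 20825177 to 27928097. Digestive enzyme and other acinar genes took 81.0% to 82.7% of the counts in control pancreas and 63.6% to 66.4% in OA-AP pancreas. Scaling by TMM (trimmed mean of M values) and scaling by library totals therefore differ in the pancreas, where totals shift the median over the tested genes by 0.71 on the log2 scale. Among adipose libraries control replicate 2 stood apart, with 1.12% of its counts on the acinar genes against 0.0187% to 0.0261% in the other libraries. OA-AP replicate 3 of the pancreas stood apart by its summed neutrophil markers, 103 CPM (reads of a gene per fixed number of reads, scaled by TMM here and below) against 3.60 to 13.8 CPM in the other OA-AP libraries and 1.20 to 1.99 CPM in control. Without that library the 5 pancreas DEGs named below were DEGs still, with log2 fold changes of 4.10 for Fkbp5, 3.27 for Ddit4, 2.74 for Zbtb16, 1.03 for Hsd11b1 and -0.86 for Nr3c1. Without control replicate 2 of adipose tissue, Fkbp5 at 2.17 and Nr3c1 at -0.92 were DEGs still and Sgk1 at 0.87 was not. In bulk tissue, fewer cells of a type and less RNA per cell cannot be told apart.

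In the pancreas, 5 of the 9 genes were DEGs (differentially expressed genes, here with a change of 1.5-fold or more and an edgeR adjusted p below 0.05). Fkbp5, Ddit4, Zbtb16 and Hsd11b1 were higher in OA-AP, where 16.2% of 12884 tested genes were, and Nr3c1 was lower, where 13.5% of tested genes were. Groups did not overlap for 7 of the 9 genes, against 62.3% of all tested genes. In adipose tissue, 3 of the 9 genes were DEGs. Fkbp5 and Sgk1 were higher, where 12.1% of 15839 tested genes were, and Nr3c1 was lower, where 13.0% were. Groups did not overlap for 5 of the 9, against 52.4% of all tested genes. The median log2 fold change of the 9 genes was 0.95 in the pancreas and 0.19 in adipose tissue, beside 0.04 and -0.01 over all tested genes.

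**Figure D1:**
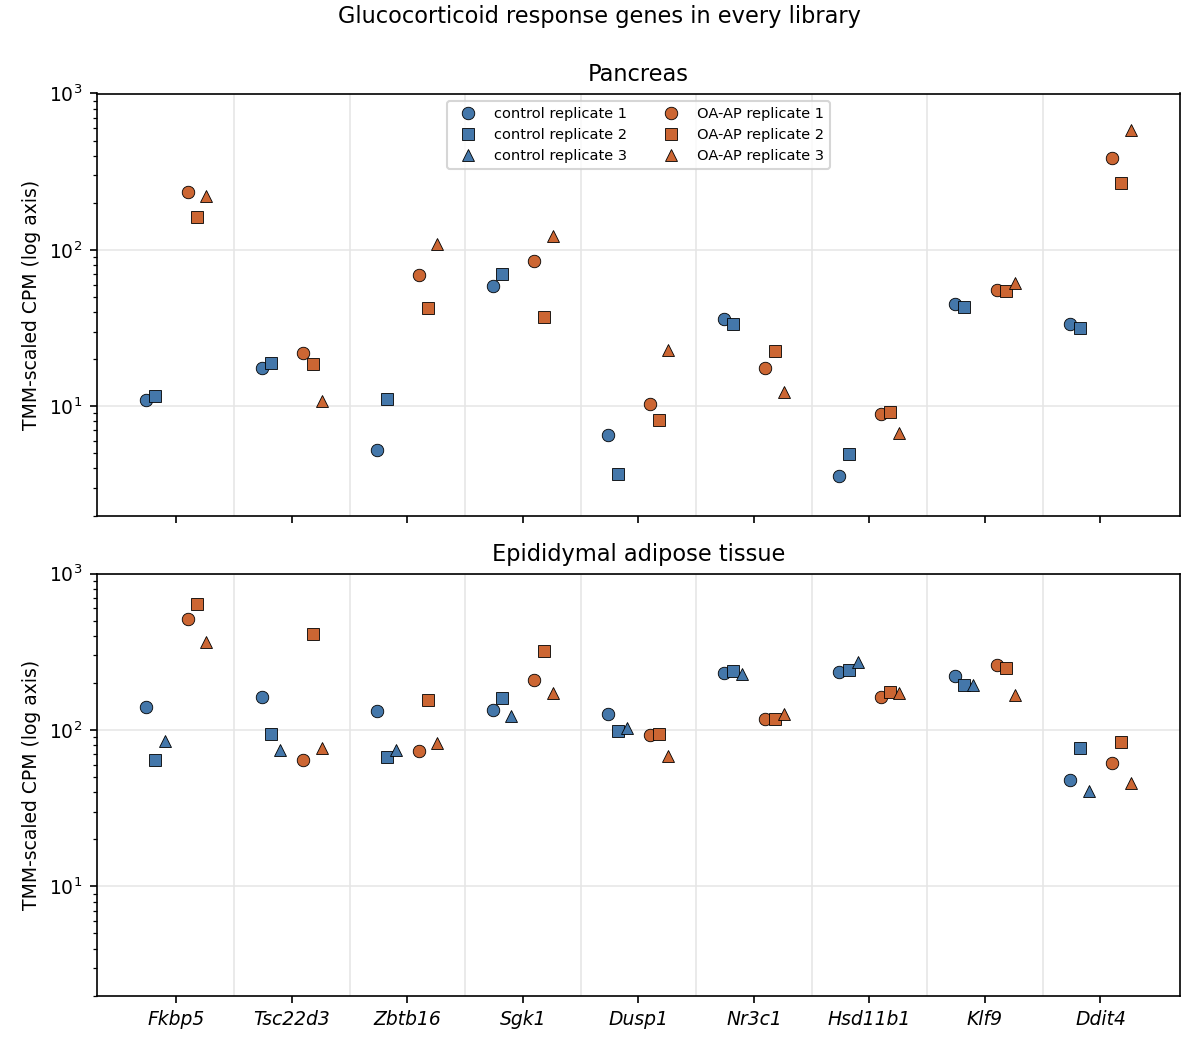
TMM-scaled CPM of the 9 genes on a log axis, for each library of pancreas (top) and epididymal adipose tissue (bottom), with blue symbols for control and orange symbols for OA-AP libraries and a symbol shape for each replicate number. Fkbp5 stands higher in every OA-AP library than in any control library of the same tissue and Nr3c1 stands lower, while Ddit4 separates the groups in the pancreas and not in adipose tissue.

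Hsd11b1, which regenerates active hormone, was scarce in the pancreas and abundant in adipose tissue. In the pancreas it measured 3.60 and 4.99 CPM in control and 8.92, 9.15 and 6.75 CPM in OA-AP. Every OA-AP library lay above both control libraries, with a log2 fold change of 0.95 ± 0.25 (SE) and no more than 170 reads in any pancreas library. It was not a DEG without control replicate 1 at 0.74, control replicate 2 at 1.20 or OA-AP replicate 1 at 0.88. Adipocyte markers moved with it in the pancreas, with a summed level of 47.0 to 61.8 CPM in control and 135 to 271 CPM in OA-AP. Of these 9 markers 3 were tested there, the lipase genes Lipe and Pnpla2 were higher, 6 with Adipoq and Plin1 among them did not pass the filter on low counts, 1 (Retn) was at 0 in every pancreas library, and their part in the result was not tested. In adipose tissue it measured 233, 243 and 273 CPM in control and 163, 175 and 173 CPM in OA-AP. Here every OA-AP library lay below every control library, the reverse order, but the log2 fold change of -0.55 ± 0.10 stayed under the fold threshold of 1.5. The difference between the tissues in this change, adipose minus pancreas, was -1.52 ± 0.23.

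Nr3c1, the receptor, was lower in OA-AP in both tissues, with TMM scaling by almost the same log2 fold change. Its pancreas levels were 36.2 and 33.8 CPM in control and 17.5, 22.4 and 12.3 CPM in OA-AP, a log2 fold change of -1.01 ± 0.23. Its adipose levels were 231, 240 and 228 CPM in control and 118, 118 and 126 CPM in OA-AP, a log2 fold change of -0.95 ± 0.09. In neither tissue did the groups overlap, and the adipose libraries of a group lay closer together than those of the pancreas. The changes in the 2 tissues differed by 0.05 ± 0.25. With library totals the pancreas value became -0.29, no longer a DEG, beside a median of 0.75 over all tested genes at that scaling. The adipose value became -1.10, a DEG still, beside a median of -0.17. The 2 values were then apart, but so were the 2 medians, which library totals moved in opposite directions. Leaving out either control library of the pancreas also ended the call, at -0.95 and -1.05. In adipose tissue, fibroblast markers moved with Nr3c1, with 5 of 7 lower in OA-AP and a summed level of 2079 to 2691 CPM against 3507 to 4340 CPM in control. Lymphocyte markers were lower too, 6 of 8 tested, at 3.27 to 5.40 CPM in OA-AP against 12.1 to 47.4 CPM in control. Neutrophil markers were higher, at 180 to 198 CPM against 7.05 to 12.9 CPM. The part of these cell types in the result was not tested.

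Because both genes are read in the same library, the ratio of their read counts does not depend on the scaling. Hsd11b1 had 0.0995 and 0.147 reads for each Nr3c1 read in control pancreas and 0.511, 0.408 and 0.547 in OA-AP pancreas. In adipose tissue the ratio was 1.01, 1.01 and 1.19 in control and 1.38, 1.48 and 1.37 in OA-AP. The ratio was thus higher in every OA-AP library than in any control library of its tissue, although Hsd11b1 itself lay on opposite sides of control in the 2 tissues.

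Fkbp5, the feedback co-chaperone, had the largest fold change of the 9 genes in both tissues. Pancreatic levels were 10.9 and 11.7 CPM in control and 236, 163 and 222 CPM in OA-AP, a log2 fold change of 4.20 ± 0.21 or 18.3-fold. Adipose levels were 140, 64.4 and 85.2 CPM in control and 510, 636 and 364 CPM in OA-AP, a log2 fold change of 2.38 ± 0.34 or 5.21-fold. The lowest OA-AP library stood well above the highest control library in both tissues. Control libraries of adipose tissue spread over a wider range than those of the pancreas, with replicate 1 the highest. The change in adipose tissue minus that in the pancreas was -1.83 ± 0.45.

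Fkbp5 remained a DEG in both tissues under every alternative run, with log2 fold changes from 4.09 to 4.91 in the pancreas and from 2.17 to 2.76 in adipose tissue. For each Nr3c1 read there were 0.301 and 0.345 Fkbp5 reads in control pancreas and 13.5, 7.28 and 18.0 in OA-AP pancreas. In adipose tissue there were 0.607, 0.268 and 0.373 in control and 4.31, 5.39 and 2.88 in OA-AP. In control libraries the receptor therefore had more reads than its co-chaperone, and in all OA-AP libraries of both tissues fewer. The ratio of Fkbp5 reads to reads of Fkbp4, the related co-chaperone that takes its place on the receptor when hormone binds, was 0.190 and 0.199 in control pancreas and 7.96, 4.68 and 9.25 in OA-AP pancreas. The adipose ratio was 2.15, 1.24 and 1.59 in control and 9.97, 12.8 and 6.46 in OA-AP. Fkbp5 thus had more reads than Fkbp4 in adipose tissue in control already.

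**Figure D2:**
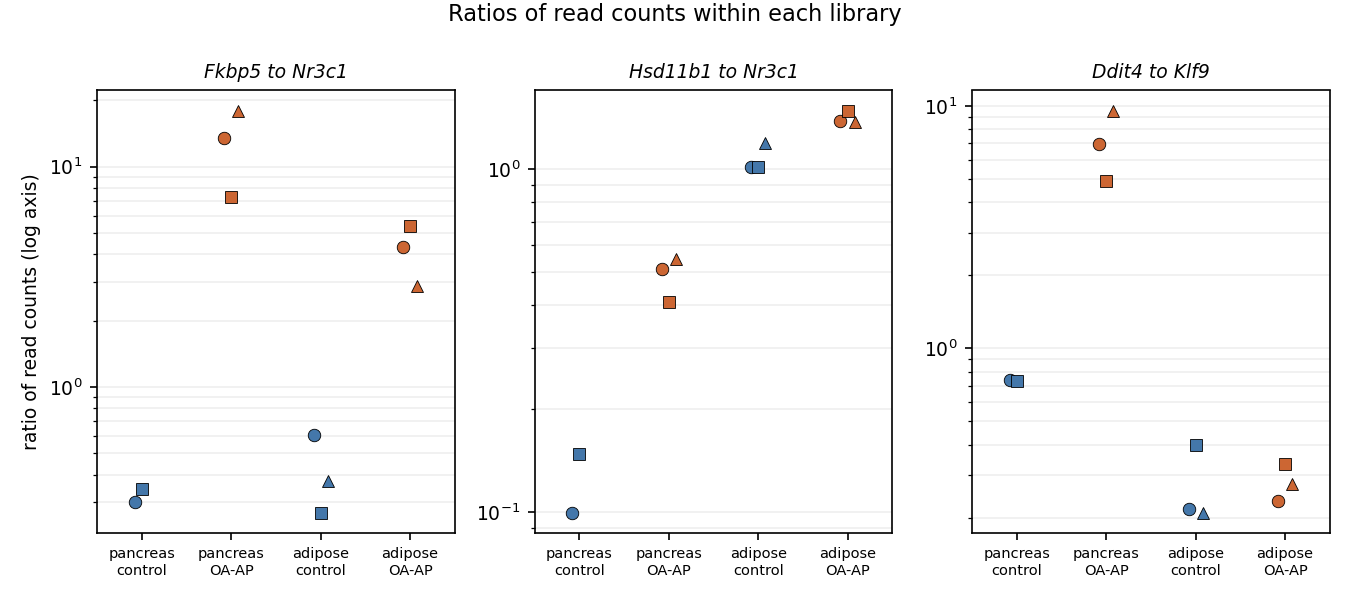
Ratios of read counts within each library on log axes, for Fkbp5 to Nr3c1, Hsd11b1 to Nr3c1 and Ddit4 to Klf9, with blue symbols for control, orange symbols for OA-AP libraries and a symbol shape for each replicate number. The Fkbp5 to Nr3c1 ratio lies between 0.268 and 0.607 in the control libraries and between 2.88 and 18.0 in the OA-AP libraries, and the Ddit4 to Klf9 ratio separates the groups in the pancreas and overlaps in adipose tissue.

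Tsc22d3, the leucine zipper gene often used as a readout of glucocorticoid action, did not follow Fkbp5. In the pancreas it measured 17.6 and 18.9 CPM in control and 21.9, 18.8 and 10.8 CPM in OA-AP, a log2 fold change of -0.09 ± 0.28. The groups overlapped, and the value turned to 0.65 with library totals. In adipose tissue it measured 161, 93.9 and 74.5 CPM in control and 64.4, 414 and 76.2 CPM in OA-AP. OA-AP replicate 2 alone was high, and the other OA-AP libraries lay within or under the control range. The log2 fold change of 0.75 ± 0.74 rested on that library and was -0.64 without it. For each Tsc22d3 read there were 7.93, 1.54 and 4.78 Fkbp5 reads in OA-AP adipose tissue and 0.869, 0.686 and 1.14 in control.

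Zbtb16, a transcription factor gene strongly induced by glucocorticoids in many cell types, separated the groups in the pancreas alone. There it measured 5.23 and 11.2 CPM in control and 68.9, 42.6 and 109 CPM in OA-AP, a log2 fold change of 3.17 ± 0.54 or 9.01-fold. The control libraries differed from each other by more than for Fkbp5, and the gene was no longer a DEG without control replicate 1, at 2.72, or without the filter on low counts, at 3.25. Its adipose levels were 132, 67.2 and 74.5 CPM in control and 73.0, 156 and 82.6 CPM in OA-AP, a log2 fold change of 0.19 ± 0.37. Its groups overlapped there, with control replicate 1 and OA-AP replicate 2 high. The change in adipose tissue minus that in the pancreas was -3.00 ± 0.71.

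Klf9, an early glucocorticoid target in many tissues, moved little. Its pancreas levels were 45.3 and 43.1 CPM in control and 55.2, 54.7 and 61.2 CPM in OA-AP, a log2 fold change of 0.37 ± 0.13. The groups did not overlap, but the change stayed under the fold threshold, and with library totals it was 1.07 and a DEG. Adipose levels were 221, 193 and 194 CPM in control and 262, 250 and 167 CPM in OA-AP, a log2 fold change of 0.16 ± 0.18, with overlapping groups.

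Sgk1, the kinase gene with the whole element in a promoter window, was a DEG in adipose tissue and, with all libraries, not in the pancreas. In adipose tissue it measured 135, 160 and 123 CPM in control and 209, 322 and 172 CPM in OA-AP, a log2 fold change of 0.75 ± 0.24. The groups did not overlap, but OA-AP replicate 3 lay close to the highest control library. The call was lost with library totals at 0.60, without the filter at 0.73, with 10 counts demanded in every sample at 0.74, and in 5 of the 6 fits that left out a library, where it ranged from 0.45 to 0.93. Pancreatic levels were 58.9 and 69.8 CPM in control and 85.3, 37.1 and 124 CPM in OA-AP. OA-AP libraries lay on both sides of control, with a log2 fold change of 0.35 ± 0.48, which was -0.12 without OA-AP replicate 3 and 0.70, then a DEG, without OA-AP replicate 2.

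Dusp1, the MAP kinase phosphatase, lay on opposite sides of control in the 2 tissues without reaching the DEG thresholds in either. In the pancreas it measured 6.52 and 3.69 CPM in control and 10.4, 8.12 and 23.0 CPM in OA-AP, a log2 fold change of 1.43 ± 0.53. Every OA-AP library lay above both control libraries, with replicate 3 the highest, and without that replicate the value was 0.80 and a DEG. It was also a DEG by DESeq2 at 1.45, with library totals at 2.09 and without OA-AP replicate 2 at 1.69. In adipose tissue it measured 127, 99.0 and 103 CPM in control and 92.5, 94.9 and 68.0 CPM in OA-AP, a log2 fold change of -0.37 ± 0.16. Every OA-AP library lay below every control library. The change in adipose tissue minus that in the pancreas was -1.80 ± 0.56.

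Ddit4, the mTORC1 inhibitor gene, changed in the pancreas almost as much as Fkbp5 and in adipose tissue hardly at all. Its pancreas levels were 33.6 and 31.7 CPM in control and 384, 268 and 586 CPM in OA-AP, a log2 fold change of 3.66 ± 0.36 or 12.6-fold. Its adipose levels were 47.8, 76.7 and 40.7 CPM in control and 61.6, 83.5 and 45.8 CPM in OA-AP, a log2 fold change of 0.21 ± 0.30. The adipose groups overlapped, and the change in adipose tissue minus that in the pancreas was -3.46 ± 0.51. For each read of Klf9 there were 0.741 and 0.736 Ddit4 reads in control pancreas and 6.96, 4.89 and 9.57 in OA-AP pancreas.

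**Figure D3:**
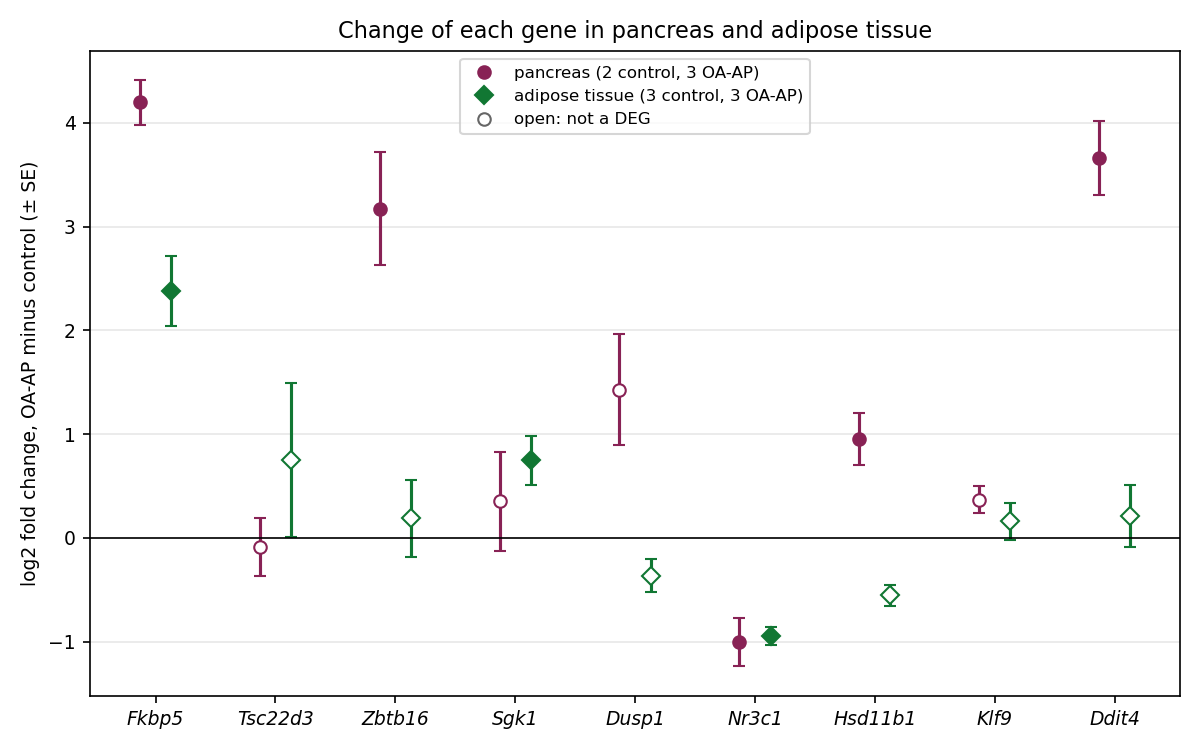
Log2 fold change of OA-AP against control with its standard error for the 9 genes, in pancreas (circles) and adipose tissue (diamonds), with open symbols for genes that were not DEGs. Fkbp5, Zbtb16 and Ddit4 stand at 3.17 or more in the pancreas and at 2.38, 0.19 and 0.21 in adipose tissue, and Nr3c1 stands near -1 in both.

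On a scale of CPM per kilobase of gene length, which allows levels of different genes to be compared, Ddit4 was the highest of the 9 genes in control pancreas at 18.6 ± 0.743 (SD, n = 2), followed by Klf9 at 13.5 ± 0.484 and Sgk1 at 13.1 ± 1.58. Klf9 and Sgk1 did not differ beyond their spread. Nr3c1 at 4.71 ± 0.230, Tsc22d3 at 4.21 ± 0.220 and Dusp1 at 1.89 ± 0.743 came next, and Zbtb16, Fkbp5 and Hsd11b1 were the lowest, at 1.55 ± 0.794, 1.19 ± 0.0574 and 1.01 ± 0.230. The spreads of these last 3 and of Dusp1 overlapped. In OA-AP pancreas Ddit4 reached 235 ± 91.7 (SD, n = 3) and Fkbp5 21.9 ± 4.07, which moved Fkbp5 from the eighth place to the second, ahead of Klf9 at 17.5 ± 1.11 and of Sgk1 at 16.7 ± 8.84 by less than the spread.

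In control adipose tissue Klf9 at 62.1 ± 4.88 and Hsd11b1 at 58.7 ± 4.84 CPM per kilobase (SD, n = 3) led and did not differ beyond their spread. Dusp1 at 40.7 ± 5.65 followed, then Nr3c1 at 31.4 ± 0.825, Ddit4 at 31.4 ± 10.9, Sgk1 at 28.4 ± 3.86 and Tsc22d3 at 25.3 ± 10.5. Zbtb16 at 17.3 ± 6.77 and Fkbp5 at 10.2 ± 4.14 were the lowest. From Dusp1 down, each gene in this order lay within the joint spread of its next neighbour, except Dusp1 with Nr3c1. In OA-AP adipose tissue Fkbp5 stood at 53.2 ± 14.4, second to Klf9 at 69.3 ± 16.0 with overlapping spreads. Levels of control adipose tissue relative to control pancreas depended on the scaling. Hsd11b1 was 14.8 times higher with TMM factors over all 11 libraries and 82.7 times higher with library totals, and Sgk1 and Ddit4 turned from 0.552 and 0.429 times to 3.07 and 2.37 times the pancreas level.

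**Figure D4:**
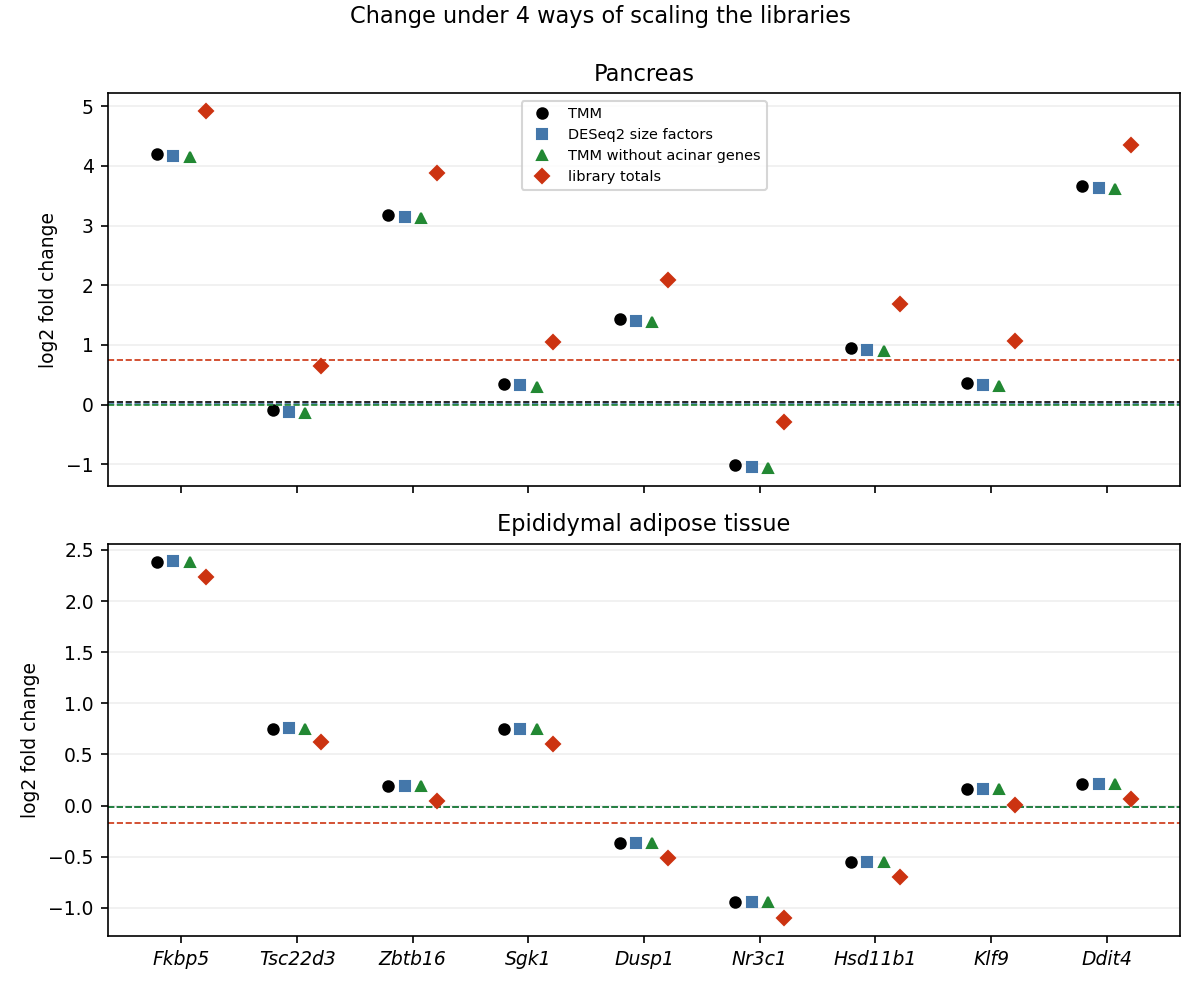
Log2 fold change of OA-AP against control for the 9 genes under 4 ways of scaling the libraries, in pancreas (top) and adipose tissue (bottom), with a dashed line at the median of all tested genes for each scaling. Library totals (red) lift all 9 genes in the pancreas together with the median, from 0.04 to 0.75, and the other 3 scalings lie close together in both tissues.

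The libraries of a group ranked alike for several of the genes. In OA-AP adipose tissue replicate 2 was the highest of the 3 libraries for 7 of the 9 genes, and in control adipose tissue replicate 1 was the highest for 5. In OA-AP pancreas replicate 3 was the highest for 5 genes and replicate 2 the lowest for 6. Genes with a profile like that of a member over the 11 libraries, by the root mean square difference of log2 CPM centred within each tissue, were sought among 11977 genes tested in both tissues. For Fkbp5 they were Tmem252 at 0.35, Tsku at 0.42, Map3k6 at 0.46 and Inhbb at 0.47, beside a median of 1.68 over all genes. For Tsc22d3 they were Hif3a at 0.32, Gm29216 at 0.40, Arhgef26 at 0.40 and Pcdh12 at 0.44, beside a median of 0.81. For Zbtb16 they were Bcl2l1 and Sun2 at 0.37, Raph1 at 0.38 and Tnfrsf21 at 0.40, beside a median of 1.18. Map3k6 and Hif3a belong to the list of other glucocorticoid-induced genes below. Hif3a measured 18.1, 5.30 and 6.67 CPM in control adipose tissue and 4.25, 33.7 and 3.79 CPM in OA-AP, high in the same 2 libraries as Tsc22d3.

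Of 45 other genes known to be induced by glucocorticoids, 38 were tested in the pancreas. Of these 18 were higher and 2 lower, where 16.2% and 13.5% of all tested genes were. Their median log2 fold change was 1.34 beside 0.04 over all tested genes. This list and those below were chosen with earlier results of these data known. Their counts, medians and adjusted p-values are therefore a description and no independent evidence on the pathway. Lcn2, which encodes the iron-binding lipocalin 2 and also rises in inflammation, rose by a log2 fold change of 7.86 ± 0.74 (adjusted p = 0.00126, edgeR). Cdkn1a, a cell cycle inhibitor, rose by 5.94 ± 0.38 (adjusted p = 0.000132, edgeR), and Pdk4, a kinase that spares glucose by blocking pyruvate oxidation, by 5.89 ± 0.30 (adjusted p = 4.28e-05, edgeR). Angptl4, an inhibitor of lipoprotein lipase, rose by 5.81 ± 0.41 (adjusted p = 0.000182, edgeR). In control pancreas Lcn2 had only 7 and 11 reads and Angptl4 17 and 6 reads. Both passed the filter on low counts only through their OA-AP libraries, so their direction was set in part by the filter. Cdkn1c and Mertk fell by 2.26 and 1.88 on the log2 scale. Cdkn1c had 27 and 17 reads in control and 9, 8 and 6 in OA-AP, and passed the filter only through control. Like Tsc22d3, the clock gene Per1 was not a DEG in the pancreas, at -0.39 ± 0.20 (adjusted p = 0.159, edgeR).

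In adipose tissue 43 of the 45 genes were tested. Of these 16 were higher and 8 lower, where 12.1% and 13.0% of all tested genes were. Their median log2 fold change was 0.34 beside -0.01 over all tested genes. Lcn2 rose by 6.65 ± 0.73 (adjusted p = 0.00148, edgeR) and Il1r2, a decoy receptor for interleukin 1 that neutrophils carry, by 6.36 ± 0.16 (adjusted p = 1.3e-05, edgeR). Il1r2 had only 10, 8 and 9 reads in control and passed the filter on low counts only through OA-AP, so its direction was set in part by the filter. The metallothionein genes Mt2 and Mt1, which bind zinc, rose by 5.46 ± 0.44 (adjusted p = 0.000537, edgeR) and 4.77 ± 0.36 (adjusted p = 0.000402, edgeR). Neutrophil markers moved with Il1r2, with 6 of 9 tested and all 6 higher, and a summed level of 180 to 198 CPM in OA-AP against 7.05 to 12.9 CPM in control, and their part in the result was not tested. Map3k6, whose profile was close to that of Fkbp5, measured 99.3, 62.1 and 80.7 CPM in control and 283, 297 and 252 CPM in OA-AP, without overlap.

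The tissues differed in the change of 18 of 43 such genes by the test of the tissue by condition term, against 20.6% of 17046 genes, and the change in adipose tissue minus that in the pancreas was negative for 13 and positive for 5. With the replicate number as a block 9 genes differed. Among the negative differences were those of Angptl4 at -4.44 ± 0.46 (adjusted p = 0.000102, edgeR), Cdkn1a at -4.27 ± 0.62 (adjusted p = 0.00109, edgeR) and Pdk4 at -2.96 ± 0.50 (adjusted p = 0.00204, edgeR). The difference for Mt2 was positive, at 3.75 ± 0.82 (adjusted p = 0.00913, edgeR). Fbxo32, a ubiquitin ligase of muscle wasting, rose in the pancreas by 1.36 ± 0.30 (adjusted p = 0.0106, edgeR) and fell in adipose tissue by 0.81 ± 0.15 on the log2 scale (adjusted p = 0.00723, edgeR). With library totals 25 genes differed, 22 with a negative and 3 with a positive difference.

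**Figure D5:**
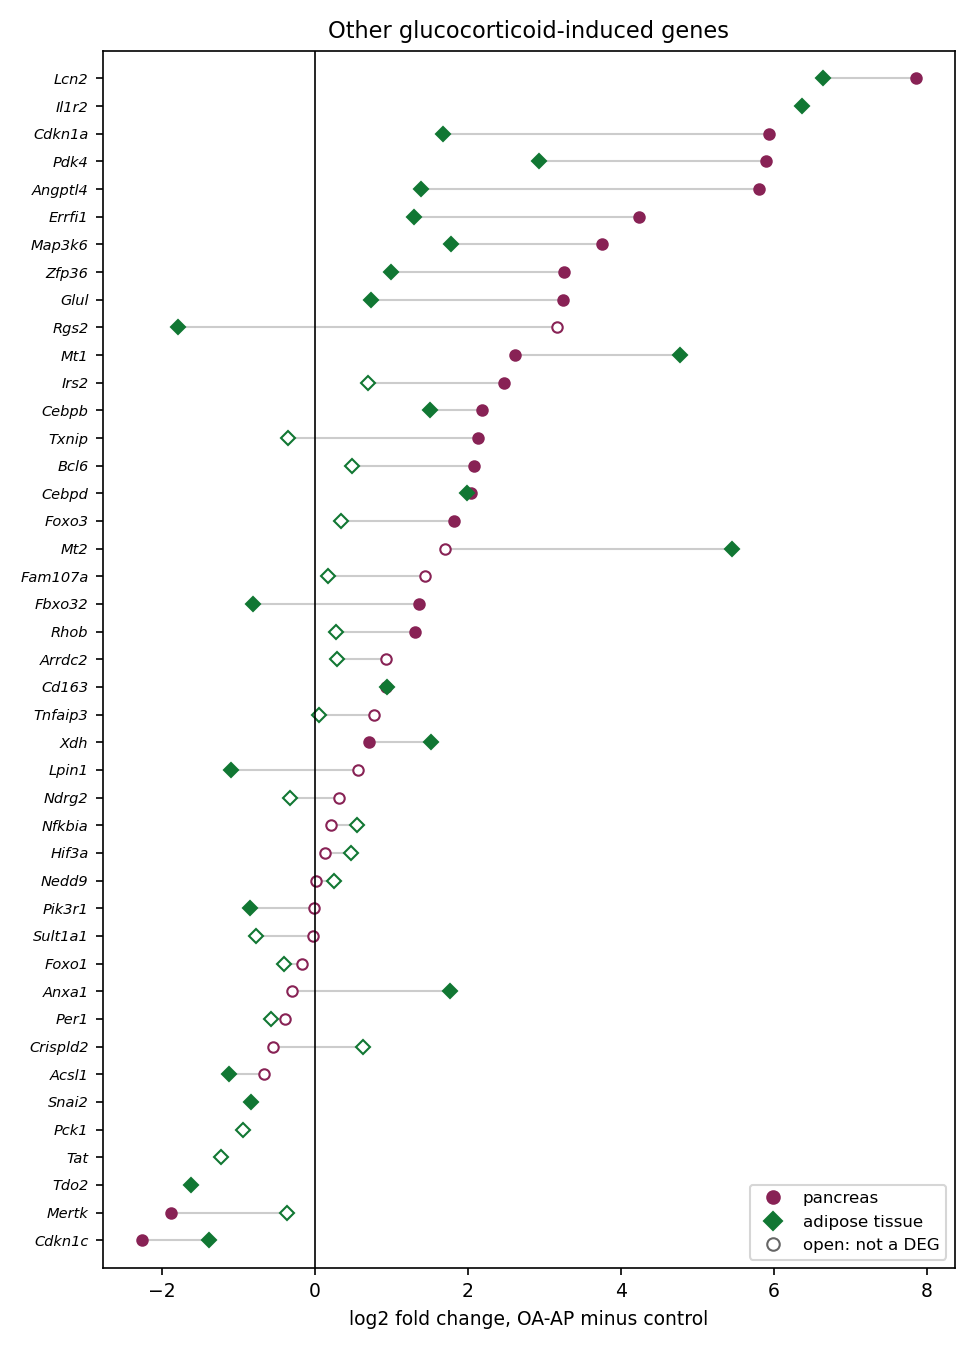
Log2 fold change of OA-AP against control for the tested genes of the list of other glucocorticoid-induced genes, in pancreas (circles) and adipose tissue (diamonds), joined by a line where both were tested, with open symbols for genes that were not DEGs. Cdkn1a, Pdk4 and Angptl4 lie further to the right in the pancreas, while Mt1 and Mt2 lie further right in adipose tissue.

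Among 20 inflammatory genes that glucocorticoids restrain, 9 were tested in the pancreas, and Ccl7, a monocyte chemokine, was the 1 DEG, higher in OA-AP. Ccl7 had 1 and 0 reads in control and 29, 28 and 99 reads in OA-AP pancreas. The median of the 9 was 5.08, or 3.31 with the 5 genes that had 3 or fewer reads in every control library set at a floor of 3 reads per library. These 5 genes passed the filter on low counts only through their OA-AP libraries, and 11 genes of the list did not pass it. The direction of this median was therefore set in part by the filter and is not read as a result. Il6 had 14, 4 and 241 reads in the OA-AP libraries, most of them in replicate 3, where the neutrophil markers also stood high, and their part in the result was not tested. In adipose tissue 15 were tested, 11 were higher and Ccl5 was lower, where 12.1% and 13.0% of all tested genes were. Their median was 4.43 beside -0.01 over all tested genes. Macrophage markers overlapped as a sum there, at 766 to 1046 CPM in control and 749 to 1219 CPM in OA-AP, with 3 of 9 higher and 1 lower. Markers of neutrophils and lymphocytes differed between the groups. Neutrophil markers summed to 7.05 to 12.9 CPM in control and 180 to 198 CPM in OA-AP, with all 6 tested markers higher, and lymphocyte markers summed to 12.1 to 47.4 CPM in control and 3.27 to 5.40 CPM in OA-AP, with 6 of 8 tested markers lower. Their part in the result was not tested. In adipose tissue Il6, Cxcl2, Il1b and Cxcl1, cytokine and neutrophil chemokine genes, rose by 6.06 ± 0.69, 5.40 ± 0.74, 5.39 ± 0.84 and 5.02 ± 0.67 on the log2 scale (adjusted p from 0.00156 to 0.00438, edgeR).

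The receptor is held by chaperones, and 5 of 12 such genes were higher and 3 lower in the pancreas, with a median log2 fold change of 0.24. In adipose tissue 7 were higher, with a median of 0.60. Of all tested genes, 16.2% were higher and 13.5% lower in the pancreas, and 12.1% were higher in adipose tissue. Hspa8, a constitutive chaperone, rose by 1.22 ± 0.16 (adjusted p = 0.00124, edgeR) in the pancreas and 1.58 ± 0.18 (adjusted p = 0.00139, edgeR) in adipose tissue. Fkbp4, the co-chaperone that favours hormone binding, fell in the pancreas by 0.98 ± 0.17 on the log2 scale (adjusted p = 0.00375, edgeR) and was at -0.12 ± 0.11 in adipose tissue (adjusted p = 0.432, edgeR). The 2 changes differed by 0.85 ± 0.21 (adjusted p = 0.0133, edgeR). Over chaperones, coregulators and steroid handling together, 9 genes were higher and 4 lower in the pancreas, and with library totals 20 were higher and the 4 calls of a decrease, Fkbp4 included, were lost.

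Among 13 coregulators 3 were higher and 1 lower in the pancreas, where 16.2% and 13.5% of all tested genes were, with a median log2 fold change of 0.32 beside -0.09 for the adipose libraries. The coactivator Ncoa3 rose in the pancreas by 1.26 ± 0.22 (adjusted p = 0.00372, edgeR). Of 10 genes of steroid handling, 4 were tested in the pancreas and 7 in adipose tissue. H6pd, which supplies the NADPH that 11β-hydroxysteroid dehydrogenase type 1 needs, rose in both. It measured 10.2 and 9.57 CPM in control pancreas and 206, 160 and 361 CPM in OA-AP pancreas, a log2 fold change of 4.61 ± 0.42 (adjusted p = 0.000691, edgeR). In adipose tissue it rose by 1.40 ± 0.13 (adjusted p = 0.000682, edgeR), and the difference of the changes was -3.23 ± 0.39 (adjusted p = 0.000216, edgeR). Hsd11b1, its partner, thus lay on opposite sides of control in the tissues while H6pd was higher in both. The transporter gene Abcb1a fell in adipose tissue by 0.80 ± 0.13 on the log2 scale (adjusted p = 0.00366, edgeR).

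Of 19 relatives of the 9 genes, 17 were tested in the pancreas, with 7 higher and 2 lower and a median log2 fold change of 1.02. In adipose tissue 18 were tested, with 4 higher and 1 lower and a median of 0.21. The shares of all tested genes were 16.2% higher and 13.5% lower in the pancreas, and 12.1% and 13.0% in adipose tissue. Nr3c2, the mineralocorticoid receptor and nearest relative of Nr3c1, fell by 1.59 ± 0.39 on the log2 scale in the pancreas (adjusted p = 0.0156, edgeR) and by 1.59 ± 0.12 in adipose tissue (adjusted p = 0.000347, edgeR). The pancreas call, like that of Nr3c1, was lost with library totals. Tsc22d1, a paralog of Tsc22d3, rose in the pancreas by 1.71 ± 0.17 (adjusted p = 0.000428, edgeR), and its relative Tsc22d2 rose in adipose tissue by 0.90 ± 0.13 (adjusted p = 0.00275, edgeR). Dusp5, a phosphatase of the Dusp1 family, rose in both tissues, by 3.46 ± 0.77 (adjusted p = 0.0175, edgeR) and 1.58 ± 0.45 (adjusted p = 0.0343, edgeR). It had only 16 and 4 reads in control pancreas and passed the filter on low counts there only through OA-AP. Klf10, a relative of Klf9, rose by 2.83 ± 0.17 (adjusted p = 5.82e-05, edgeR) and 0.72 ± 0.18 (adjusted p = 0.0191, edgeR).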

How the data were processed

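RNA sequencing counts of 11 libraries were analysed. The authors trimmed reads with Trim Galore (0.6.6), checked them with fastp (0.20.1), mapped them to GRCm38 with STAR and counted them with featureCounts (2.0.1), and the deposited values are raw whole-number counts per gene. The strand setting of the counting and the annotation release are not given in the sources used here, and counts between overlapping genes could change with them. Each tissue was tested apart with edgeR (4.0.16, R 4.3.3) by the quasi-likelihood test after filterByExpr and TMM scaling. DEGs passed 0.05 after Benjamini-Hochberg adjustment and changed 1.5-fold or more. CPM values are TMM-scaled. Standard errors were derived from the log2 fold change and its F statistic. The change in adipose tissue minus that in the pancreas was the tissue by condition term of a fit over all 11 libraries. The members and lists were chosen with earlier results of these data known. List genes named in the text were, per list and tissue, up to 4 DEGs without overlap between groups. They had the largest fold changes and a mean log2 CPM from 1 upwards. DEGs with opposite directions in the tissues and a called difference between the tissues were named too. Map3k6, Hif3a, Per1, Cdkn1c, Mertk, Ccl7 and Ccl5 were added after their values were seen. A gene that met these criteria is not reported here. Alternatives were DESeq2 (1.42.0), its size factors in edgeR, library totals, TMM without acinar genes, other filters (none, or 10 counts in every sample), fold thresholds of 2 or none, leaving out samples in turn, and the replicate block. Counts of libraries within a group differed beyond counting noise (chi-square per degree of freedom of 7.56 or more).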

Additional observations from a re-analysis of the deposited data

Results flagged for a closer look

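The change between OA-AP and control differed between the tissues for 16 of the list genes that met the criteria for naming. This is by the test of the tissue by condition term, given as the log2 change in adipose tissue minus that in the pancreas. Over all genes the share was 20.6% of 17046. The named genes were picked for a large fold change in a tissue, and Fbxo32 for a called tissue difference. The 16 are therefore a description and no independent evidence of a tissue difference. Of the genes added after their values were seen, Map3k6 at -1.99 and Mertk at 1.52 differed too. Among the 16, the difference was negative for the induced genes Angptl4 at -4.44, Cdkn1a at -4.27, Pdk4 at -2.96 and Fbxo32 at -2.18. It was positive for Mt2 at 3.75 and Mt1 at 2.14. Among relatives of the 9 genes the difference was -2.74 for Dusp16, -2.13 for Klf10 and -1.40 for Tsc22d1. Among the receptor's chaperones it was 0.85 for Fkbp4 and 1.13 for Stip1. Among its coregulators it was -2.01 for Nrip1, -1.59 for Ncoa3, 0.97 for Med14 and -1.02 for Crebbp. For H6pd, the partner enzyme of Hsd11b1, it was -3.23.

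For Dusp1 and Hsd11b1 every OA-AP library lay above control in the pancreas and below control in adipose tissue, with differences of -1.80 and -1.52. Groups did not overlap, in either direction, for 62.3% of all tested genes in the pancreas and 52.4% in adipose tissue. How many genes lay on opposite sides was not counted, so the pattern is not read as particular to these genes. Both differences come from the fit across all genes and are given as a description without a test result. Both genes were chosen with these values known.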

How the results depend on the processing

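With all libraries, 5 of the 9 genes were DEGs in the pancreas, beside 3834 of 12884 tested genes, and 3 in adipose tissue, beside 3981 of 15839. Without 1 OA-AP library at a time, the pancreas gave 4 to 7, beside 2703 of 12457 to 4265 of 12576 tested genes. Without 1 library of either group, adipose tissue gave 2 to 3, beside 2865 of 16086 to 4476 of 16244 tested genes. These fits without a library gave 18 to 24 other induced genes, 1 to 3 restrained genes, 10 to 14 machinery genes and 8 to 10 relatives in the pancreas. In adipose tissue they gave 17 to 27, 11 to 12, 7 to 13 and 3 to 6. Genes of the induced list that differed between the tissues numbered 15 to 19. Fits without a pancreas control library left 1 library in that group, which was assumed to vary like the others. Fewer genes were called in them, among the 9 and over all genes, and their counts are left out here.

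Of the restrained genes in the pancreas, 1 was a DEG in the main analysis, 5 by DESeq2, 3 with library totals, 3 without the filter and 0 with 10 counts in every sample. Machinery genes in the pancreas numbered 13, and 20 with library totals, beside 3834 and 6349 of all 12884 tested genes. With a fold change of 2 there were 5 machinery genes in the pancreas. In adipose tissue there were then 1 of the 9 genes in place of 3, 5 machinery genes in place of 12 and 2 relatives in place of 5. How many of all tested genes passed that threshold was not counted, so no drop is read as particular to these genes. Library totals turned the share of DEGs that were higher from 54.5% to 92.0% in the pancreas and from 48.1% to 32.1% in adipose tissue, where they shifted the median by -0.15. Hsd11b1 in adipose tissue was a DEG at -0.70 with library totals.

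With the replicate block there were 5 restrained genes in the pancreas and 9 in place of 18 induced genes that differed between tissues, Dusp1 in the pancreas became a DEG at 0.87 and Sgk1 there was at -0.17. Deviations of same-numbered samples correlated at -0.16 to 0.13, with -0.05 to 0.13 between the tissues. OA-AP and control mice are different animals, and it is not stated if a pancreas and an adipose library of the same number came from 1 mouse, so the block between tissues is given without treating the samples as paired. The cause of these differences was not tested. With 2 control libraries in the pancreas, changes near the fold threshold were beyond the precision of the data.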
